A study of Mus musculus with 9 samples.

Results

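The miR-199 and miR-214 miRNAs were followed in mouse epididymosomes, the extracellular vesicles that carry cargo from the epididymal epithelium to maturing spermatozoa. All mature miRNA names that begin with miR-199a-, miR-199b- or miR-214- were taken, which gave 6 of the 358 names measured: the 5p and the 3p arm of each. No measured value entered this choice. Vesicles came from the caput, corpus and cauda epididymis, the order in which spermatozoa pass through the organ, of male Swiss mice aged 8 weeks. The labels give no genotype and no treatment, so that segment was the only difference they name between the 3 groups. Depth differed as well, as every caput library held more miRNA reads than any corpus or cauda library. Each segment was represented by 3 small RNA libraries, and each library held RNA pooled from several mice. Replicates were therefore pools and not single animals. After perfusion of the vasculature, the luminal fluid was freed by cutting the tissue of each segment in medium. Debris was spun out and the vesicles were then banded on a density gradient. The paper reports that immunoblots of them detected no haemoglobin and no marker of cytoplasmic droplets. The labels name no cell of origin for the vesicles.

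A miRNA hairpin is cut to a duplex, 1 strand of which is loaded into an Argonaute protein and guides it to messenger RNAs, mainly through the seed at bases 2 to 8. miR-199a and miR-214 are known as miRNAs of mesenchyme: a single non-coding transcript, Dnm3os, is the precursor of both, its transcription is driven by the mesenchymal factor Twist1, and loss of Dnm3os in mice disturbs growth and the skeleton. In adult tissues both are associated with fibroblasts and smooth muscle more than with epithelium. miR-199b is a close relative encoded elsewhere in the genome.

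The sequences are shown because they decide which of these 6 names can be told apart by reads. RefSeq for GRCm38.p6 holds mature sequences for 5 of the 6 names, miR-199b-5p being the other one. They are written 5′ to 3′ with the seed in capitals:
miR-199a-5p: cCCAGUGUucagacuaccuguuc
miR-199a-3p: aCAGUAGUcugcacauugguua
miR-199b-3p: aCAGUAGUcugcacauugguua
miR-214-5p: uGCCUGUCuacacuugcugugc
miR-214-3p: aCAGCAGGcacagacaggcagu
The 3p arms of miR-199a and miR-199b are the same 22 bases, so a read of this sequence belongs to either name. Of the 299 measured names with a RefSeq sequence, no other shares a seed with these miRNAs. The miR-214-3p seed occurs in 1 further mouse miRNA of the reference, miR-761, which was not analysed here.

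The 3 Mir199 hairpins are shown to place the arms. The mature sequences that RefSeq lists for each are in capitals:
Mir199a-1: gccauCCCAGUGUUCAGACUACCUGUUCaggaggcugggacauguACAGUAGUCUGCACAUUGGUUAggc
Mir199a-2: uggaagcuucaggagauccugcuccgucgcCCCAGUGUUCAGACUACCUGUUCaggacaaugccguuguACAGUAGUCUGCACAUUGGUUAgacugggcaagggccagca
Mir199b: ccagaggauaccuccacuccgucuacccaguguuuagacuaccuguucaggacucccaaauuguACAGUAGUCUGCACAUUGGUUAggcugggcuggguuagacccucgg
The sequence of miR-199a-5p occurs unchanged in both Mir199a hairpins and with 1 substitution, C10U counted from its 5′ end, in the Mir199b hairpin. Reads of the 5p arm could thus be divided between miR-199a and miR-199b by 1 base, whereas reads of the 3p arm could not. All 4 loci lie in or against dynamin genes. Mir199a-2 (chr1:162217814-162217923, plus strand) and Mir214 (chr1:162223368-162223477, plus strand) are 5444 bases apart, in exons of Dnm3os and within introns of Dnm3 on the opposite strand. Mir199a-1 (chr9:21496495-21496564, minus strand) lies opposite an intron of Dnm2, and Mir199b (chr2:32318460-32318569, plus strand) opposite an intron of Dnm1. Dynamins are the GTPases that pinch vesicles from membranes. A read of miR-199a does not say which of its hairpins it came from, so only miR-214 and, on its 5p arm, miR-199b could be tied to a single locus.

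Levels were deposited as CPM, which is reads on 1 miRNA per 1000000 reads on known miRNAs. The values were whole multiples of what 1 read was worth, within 0.01 of a read for 100% of the low values, and the totals taken from these steps were 8274421 to 11306605 reads in the caput, 1548581 to 6190324 in the corpus and 2001086 to 5896748 in the cauda. The caput libraries differed most in composition: miR-10a-5p together with miR-10b-5p held 50.5% to 71.3% of their reads, against 33.2% to 34.5% in the cauda. CPM ties each miRNA to the total of its library. The median log2 fold change over every miRNA tested was 0.47 from caput to corpus, 0.18 from corpus to cauda and 0.81 from caput to cauda. Fold changes below are given on this scale and, where it matters, relative to these medians. A smaller number of vesicles carrying a miRNA and less of it per vesicle cannot be told apart in such libraries.

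Counting miR-199a-3p once for both 3p names, the miR-199 and miR-214 miRNAs made up 1844 ± 963 CPM (SD, n = 3) of caput vesicles, 3895 ± 713 CPM of corpus vesicles and 5591 ± 1187 CPM of cauda vesicles. miR-199a-3p was 71.4% to 85.8% of this sum in every library. By mean CPM over the 9 libraries it ranked 26th of the 358 names, miR-199a-5p 78th, miR-199b-5p 135th, miR-214-3p 155th and miR-214-5p 230th. These mature miRNAs are 22 or 23 bases long, so their CPM were compared without a correction for length. miR-199a-5p lay above miR-199b-5p and miR-214-3p in all 9 libraries. The last pair changed places: in the caput and corpus their libraries overlapped, whereas in the cauda miR-199b-5p was above miR-214-3p in all 3 libraries.

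**Figure D1:**
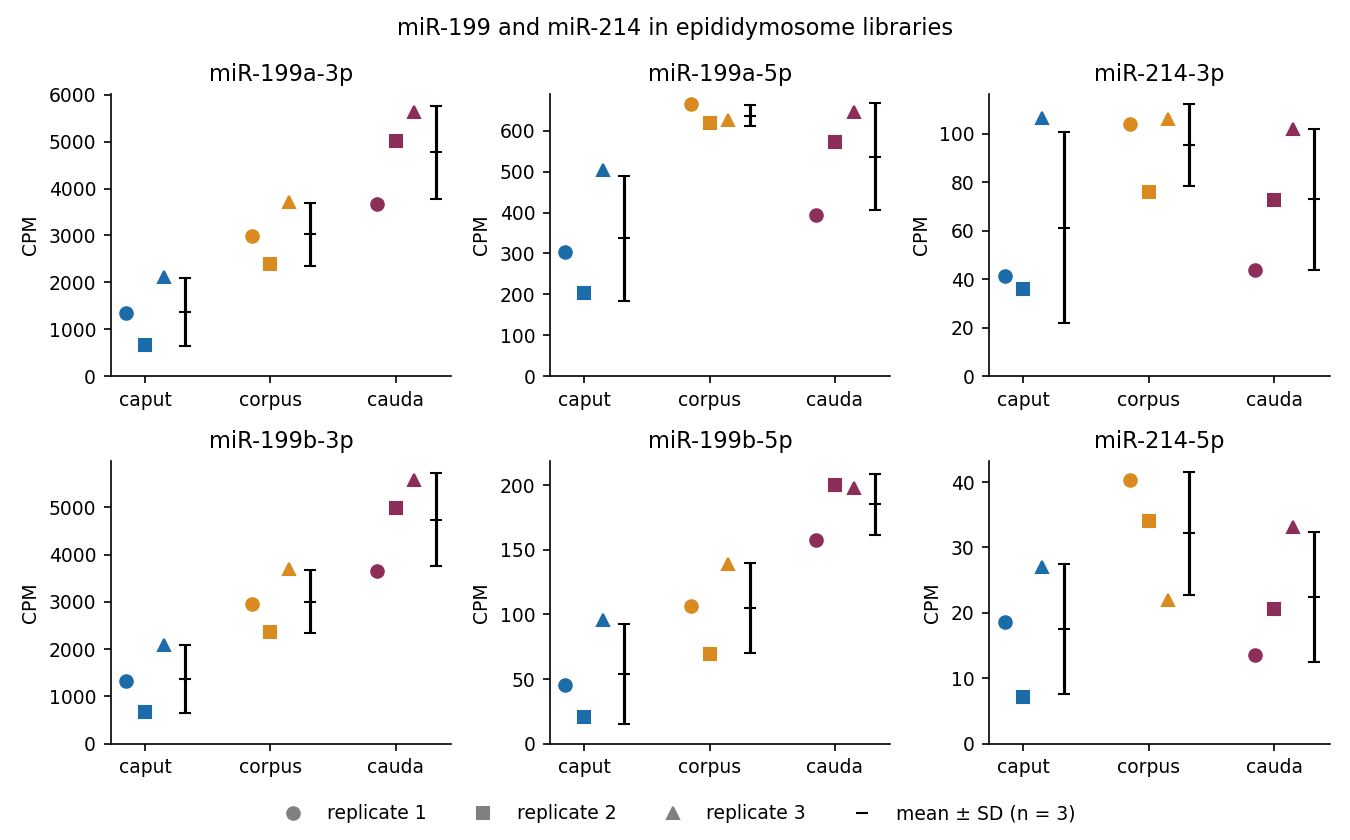
Level of each of the 6 names in CPM (vertical axes, linear, from 0) in the caput, corpus and cauda. Symbols are the 3 libraries of a segment and bars the mean ± SD (n = 3). Both 3p names and miR-199b-5p were highest in the cauda, while the means of miR-199a-5p, miR-214-3p and miR-214-5p were highest in the corpus.

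The 3p arm of miR-199 was higher in cauda than in caput vesicles. miR-199a-3p had 1338, 667 and 2120 CPM in caput replicates 1, 2 and 3, 2983, 2382 and 3714 CPM in those of the corpus, and 3677, 5021 and 5624 CPM in the cauda. Every caput library was below every corpus and cauda library, while the lowest cauda library lay just under the highest corpus library. The name rose in rank from 41st in the caput to 27th in the corpus and 17th in the cauda. miR-199b-3p followed it in every library, with caput libraries at 660 to 2098 CPM, corpus libraries at 2365 to 3693 CPM and cauda libraries at 3660 to 5580 CPM. Reads under the name miR-199a-3p exceeded those under miR-199b-3p by 0.464% to 1.25%, or 32 to 262 reads of 5523 to 33165. The 2 names were thus in effect 1 measurement.

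miR-199b-5p, the arm that could be read apart, rose as well. It had 45.2, 20.3 and 95.9 CPM in the caput libraries, 107, 69.3 and 139 CPM in the corpus libraries and 157, 200 and 198 CPM in the cauda libraries. All cauda libraries were above all others, and caput replicate 3 lay within the range of the corpus. These values stood on 168 to 811 reads in the caput, 177 to 660 in the corpus and 315 to 1165 in the cauda. The 95% Poisson interval of the lowest library was 17.3 to 23.6 CPM, which is narrow beside the spread between caput libraries. Such intervals cover counting error only, as amplified copies of a molecule could not be recognised.

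miR-199a-5p behaved otherwise. It had 303, 203 and 503 CPM in caput vesicles, 666, 618 and 626 CPM in corpus vesicles, and 393, 572 and 646 CPM in the cauda. All corpus libraries were above all caput libraries, but the cauda libraries reached from within the caput range up to the corpus range. The corpus libraries were close to each other, with a coefficient of variation of 3.98%, against 45.3% in the caput and 24.2% in the cauda.

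Both arms of miR-214 were the least abundant by mean CPM over the 9 libraries. In the caput alone the mean of miR-214-3p, at 61.3 CPM, was above that of miR-199b-5p, at 53.8 CPM. miR-214-3p had 41.4, 35.9 and 106 CPM in caput vesicles, 104, 76.0 and 106 CPM in corpus vesicles, and 44.0, 72.8 and 102 CPM in the cauda. Caput replicate 3 was the highest library of all, so the 3 segments overlapped. miR-214-5p had 18.6, 7.13 and 27.0 CPM in caput vesicles, 40.4, 34.1 and 22.0 CPM in corpus vesicles, and 13.5, 20.6 and 33.1 CPM in the cauda, again with overlap between all segments. In the shallowest libraries this arm rested on 27 reads in cauda replicate 1 and 34 in corpus replicate 3, with 95% Poisson intervals of 8.89 to 19.6 CPM and 15.2 to 30.7 CPM.

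Segments were compared with limma on log2(CPM + 1), a scale on which the change of rare miRNAs is understated. A miRNA was called differentially accumulated at a fold change of at least 2 with an adjusted p under 0.05 after Benjamini-Hochberg adjustment over all miRNAs tested. Between caput and cauda, 3 of the 6 names were higher in the cauda, or 2 of the 5 distinct profiles, where 38.7% of all tested miRNAs were called in this direction. The libraries of the segments did not overlap for the same names, as was so for 42.4% of all tested miRNAs in this direction. Nothing particular to these names was read from so small a count. miR-199a-3p rose 3.80-fold, a log2 fold change of 1.92 (standard error 0.39, adjusted p = 0.00089 by limma). miR-199b-5p rose 4.05-fold, a log2 fold change of 2.02 (standard error 0.51, adjusted p = 0.0040 by limma). Relative to the median of all tested miRNAs these were log2 changes of 1.11 and 1.21. The remaining changes were smaller: 0.74 for miR-199a-5p (95% interval -0.11 to 1.59, adjusted p = 0.13 by limma), 0.34 for miR-214-3p (-0.68 to 1.36, adjusted p = 0.57) and 0.42 for miR-214-5p (-0.67 to 1.51, adjusted p = 0.52). The intervals of the last 3 include both no change and a rise of more than 2-fold.

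From caput to corpus only the 3p arm of miR-199 was called, where 19% of all tested miRNAs were called higher in the corpus. The log2 fold change of miR-199a-3p was 1.27 (standard error 0.39, adjusted p = 0.028 by limma), or 2.41-fold. This call depended on single libraries and on the scaling. The change of miR-199a-3p was 0.82 (adjusted p = 0.063) without caput replicate 2, 1.26 (adjusted p = 0.075) without corpus replicate 1 and 1.11 (adjusted p = 0.11) without corpus replicate 3. Without caput replicate 3 all names but miR-214-5p were called, where 96 of 306 of all tested miRNAs were called higher. The median of all tested miRNAs was then 0.82. The changes of miR-199b-5p, at 1.16, and miR-199a-5p, at 1.02, were of like size but did not pass (adjusted p = 0.11 and 0.079 by limma). For miR-199a-5p the libraries of the segments did not overlap, as was so for 29.3% of all tested miRNAs in the direction of the corpus. miR-214-3p changed by 0.79 and miR-214-5p by 0.97 (adjusted p = 0.25 and 0.19 by limma).

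From corpus to cauda none of the 6 names passed by limma, where 19% of all tested miRNAs were called in either direction. None had an unadjusted p under 0.05 in this fit, and none passed by limma-voom on the reads recovered from the CPM steps. With library size taken without the 3 most abundant miRNAs, miR-199a-3p changed by 0.80 (adjusted p = 0.043 by limma), a fold still under 2. For miR-199b-5p the libraries did not overlap, as was so for 30.1% of all tested miRNAs in the direction of the cauda. The fitted values pointed in opposite directions: 0.86 for miR-199b-5p (95% interval -0.21 to 1.93) and 0.66 for miR-199a-3p (-0.17 to 1.49), against -0.28 for miR-199a-5p (-1.12 to 0.57), -0.45 for miR-214-3p (-1.47 to 0.57) and -0.55 for miR-214-5p (-1.64 to 0.54). Neither did any name pass a test of whether the step from caput to corpus differed from the step from corpus to cauda, a test passed by 6.15% of all miRNAs. In a limma F test over the 3 segments the adjusted p was 0.0026 for miR-199a-3p and 0.012 for miR-199b-5p, against 0.098 for miR-199a-5p, 0.37 for miR-214-3p and 0.28 for miR-214-5p. Of all 358 miRNAs 48.9% were under 0.05 in this test.

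**Figure D2:**
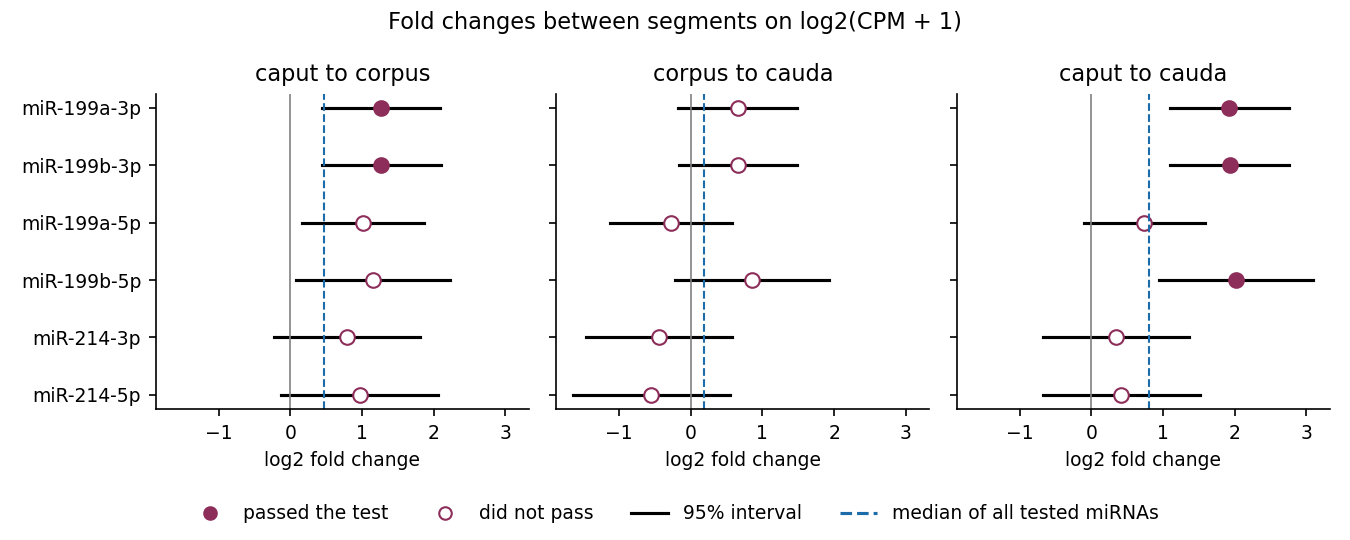
Log2 fold change on log2(CPM + 1) of each name (horizontal axis) in the 3 comparisons, with its 95% interval from limma as a line. Filled points passed the test, and the dashed line is the median of all tested miRNAs. From caput to cauda both 3p names and miR-199b-5p lay above this median of 0.81, whereas miR-199a-5p lay at it and the arms of miR-214 below it.

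The scaling of the libraries moved all of these values together. TMM normalization takes its factors from the miRNAs left after extreme ratios and levels are trimmed, rather than from the total. With it the median of all tested miRNAs from caput to cauda was 0.07, and with median-of-ratios factors it was -0.01. Over all tested miRNAs the calls from caput to cauda were 84 higher and 73 lower with TMM normalization, against 135 and 36 by library size. From caput to corpus they were 42 and 49 against 61 and 11, and from corpus to cauda 56 and 34 against 48 and 17. With TMM normalization and median-of-ratios factors the rise of miR-199a-3p from caput to cauda was 1.25 and 1.20, and that of miR-199b-5p 1.35 and 1.31. Both remained called, with adjusted p of 0.00094 and 0.0012 for miR-199a-3p and of 0.0049 and 0.0066 for miR-199b-5p by limma. miR-199a-5p was then at 0.06 and 0.02, and miR-214-3p turned to -0.32 and -0.37 and miR-214-5p to -0.21 and -0.25, none of them past the test. From caput to corpus no name was called with TMM normalization, where miR-199a-3p changed by 0.69, a fold of 1.61 (adjusted p = 0.036 by limma). The direction of miR-214 between caput and cauda thus changed with the choice of scaling.

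**Figure D3:**
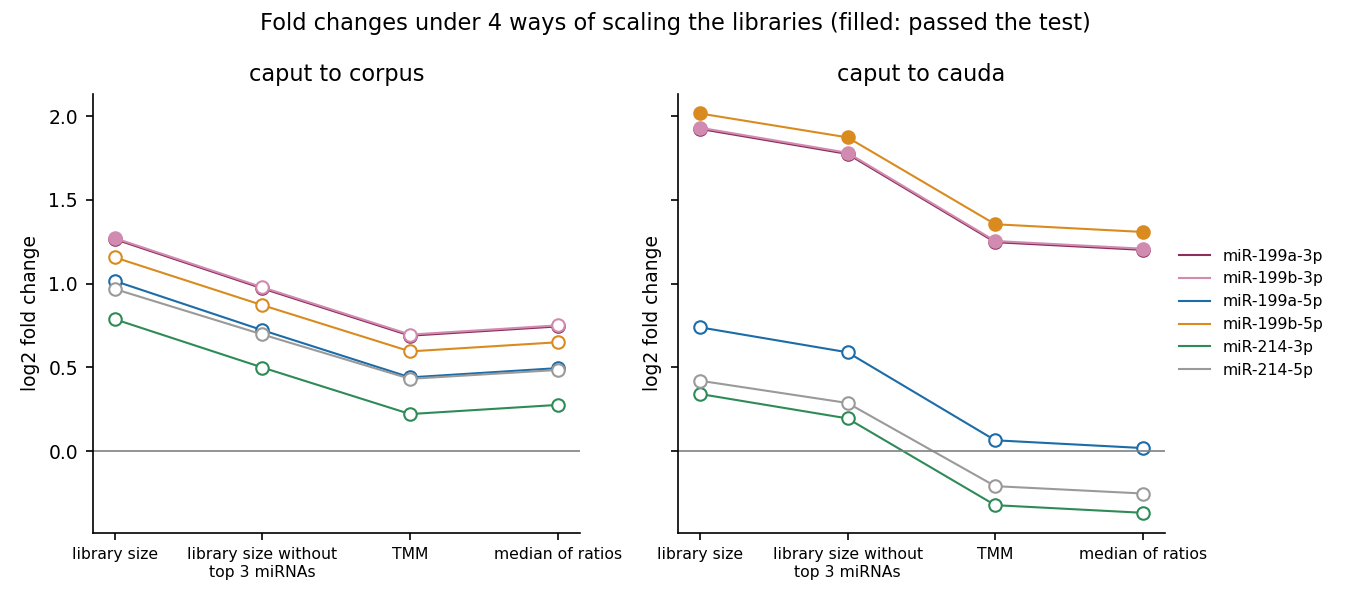
Log2 fold change (vertical axis) of each name under 4 scalings of the libraries (horizontal axis), from caput to corpus and from caput to cauda. Filled points passed the test. From caput to cauda both 3p names and miR-199b-5p passed under each scaling, at 1.20 to 2.02, while both arms of miR-214 crossed 0.

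Ratios between names of the same library do not depend on that scaling. They were chosen after the values had been seen, apart from the ratios of the arms. The share of the miR-199 5p reads that carried the name miR-199b-5p was 13.0%, 9.08% and 16.0% in the caput libraries, 13.8%, 10.1% and 18.1% in the corpus libraries, and 28.6%, 25.9% and 23.4% in the cauda libraries. Caput and corpus overlapped, at means of 12.7% ± 3.48 and 14.0% ± 4.04 (SD, n = 3), and all cauda libraries lay above both, at 26.0% ± 2.59 (SD, n = 3). An exact permutation test of cauda against caput gave a two-sided p of 0.10, which is the smallest that 3 against 3 libraries allow. The same value was obtained for cauda against corpus.

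The balance of the arms of miR-199a also differed between caput and cauda. The ratio of miR-199a-3p to miR-199a-5p was 3.28 to 4.41 in the caput, 3.85 to 5.93 in the corpus and 8.71 to 9.36 in the cauda. In a limma fit over the 64 precursors whose arms each averaged at least 10 CPM, the log2 arm ratio (5p over 3p) of miR-199a fell by 1.18 from caput to cauda (standard error 0.31, adjusted p = 0.026), where 7.81% of precursors were called in this direction. In either direction 15.6% were called. The arm ratio of miR-199b, over nearly the same 3p reads, changed by 0.10 from caput to cauda (95% interval -0.57 to 0.77, adjusted p = 0.84 by limma). From corpus to cauda the arm ratio of miR-199a changed by -0.94 (adjusted p = 0.12 by limma), where 6.25% were called in either direction. The 3p reads include those of miR-199b, however. With the 5p arms of miR-199a and miR-199b summed, an alternative added after the values were seen, the change from caput to cauda was -0.95 and no longer passed (adjusted p = 0.053 by limma). The adjusted p also rose above the threshold without any 1 of the 3 caput libraries or of cauda replicates 1 and 2, between 0.053 and 0.11, although the change itself stayed between -1.27 and -1.05. The ratio of the 3p arm to the summed 5p arms was 3.84, 2.98 and 3.54 for caput vesicles, 3.86, 3.46 and 4.85 for corpus vesicles, and 6.68, 6.51 and 6.67 in the cauda. Caput and corpus overlapped, and the cauda libraries lay above both.

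No change in the balance of the arms of miR-214 was detected. The ratio of miR-214-3p to miR-214-5p was 2.23 to 5.03 in the caput, 2.23 to 4.82 in the corpus and 3.08 to 3.53 in the cauda, and the change of the log2 arm ratio from caput to cauda was 0.09 (95% interval -0.76 to 0.95, adjusted p = 0.90 by limma). The ratio of miR-214-3p to miR-199a-5p, which can come from the same Dnm3os transcript, was 0.136 to 0.212 in the caput, 0.123 to 0.169 in the corpus and 0.112 to 0.158 in the cauda. The segments overlapped in this ratio as well.

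**Figure D4:**
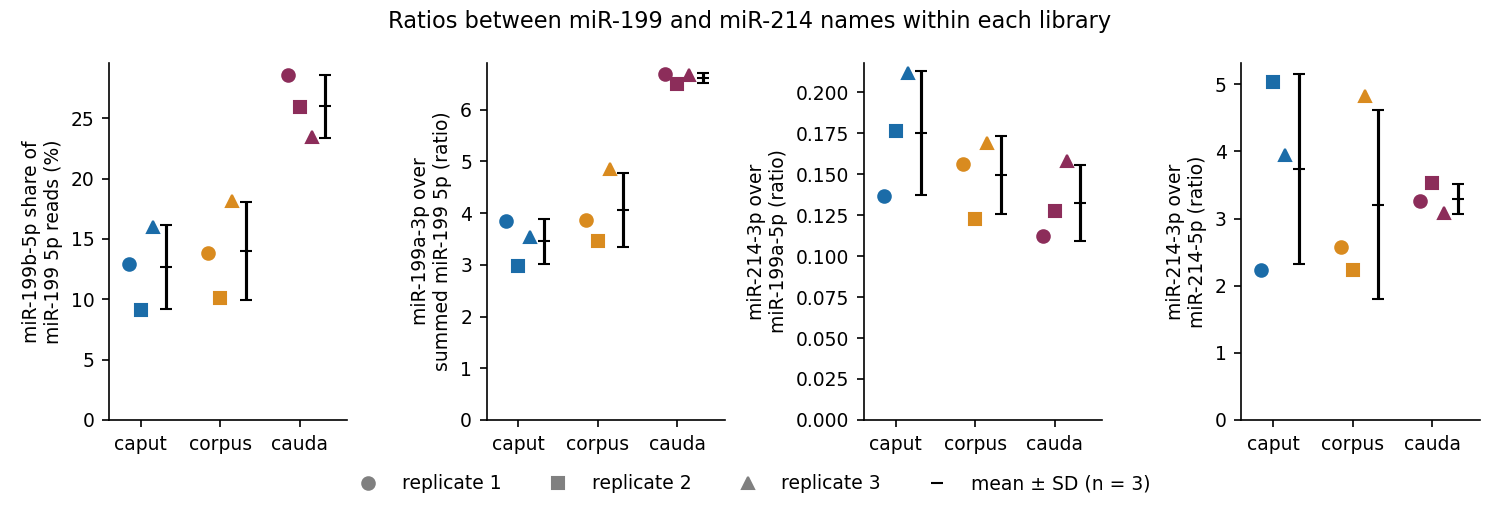
Share of miR-199b-5p among the miR-199 5p reads (percent) and 3 ratios between names, by segment. Symbols are libraries and bars the mean ± SD (n = 3), with linear axes from 0. In the first and second panels the 3 cauda libraries lay above all others (23.4% to 28.6%, and ratios of 6.51 to 6.68), while in the panels with miR-214 the segments overlapped.

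Across the 9 libraries the Pearson correlation of log2(CPM + 1) was 0.985 between miR-199b-5p and miR-199a-3p, and 0.892 and 0.887 between miR-199a-5p and the 3p and 5p arms of miR-214. It was 0.838 between miR-199a-5p and miR-199a-3p, 0.826 between the arms of miR-214 and 0.794 between both 5p arms of miR-199. The libraries share their segment and their scaling, which raises all such values: with TMM normalization the same correlations were, in this order, 0.960, 0.727, 0.723, 0.244, 0.560 and 0.103. Between an arm of miR-214 and miR-199a-3p or miR-199b-5p the correlation was 0.545 to 0.632 by library size. With TMM normalization it was -0.159 to -0.070. All these correlations are given as a description.

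The other miRNAs on a list of 14 names linked to fibroblasts and smooth muscle were all measured. From caput to cauda 8 of the 14 were called higher and 0 lower by limma, with a median log2 fold change of 1.23. Of all tested miRNAs 38.7% were called higher and 10.3% lower, with a median of 0.81. The clustered smooth muscle miRNAs miR-143 and miR-145a were called on both arms, from 1.53 for miR-143-5p to 2.78 for miR-145a-3p. The others were miR-152-3p at 2.24 and the miRNAs of the imprinted Dlk1-Dio3 locus miR-379-5p at 2.12, miR-409-3p at 1.36 and miR-411-5p at 1.09. Of the remaining 6, miR-140-5p was at 1.11, miR-127-3p at 0.95, miR-99a-5p at 0.82 and miR-140-3p at 0.74. miR-100-5p was at -0.34 and miR-125b-5p at -0.20. Only the last 2 lay below miR-214 and miR-199a-5p, which were thus in the lower part of the list. Of the names called from caput to cauda, miR-379-5p passed the filter on low values only through the cauda. The count was 4 of 14 with TMM normalization, 5 without caput replicate 2 and 11 without caput replicate 3, where 84 of 350, 100 of 353 and 175 of 335 of all tested miRNAs were called higher. From corpus to cauda 4 of the 14 were higher, the arms of miR-143 and miR-145a, where 14% of all tested miRNAs were. Of these, miR-143-5p passed the filter only through the cauda, with means of 8.29 CPM in the corpus and 31.6 CPM in the cauda. The count from corpus to cauda was 2 without corpus replicate 1, corpus replicate 2 or cauda replicate 3, and 6 without caput replicate 2 or 3. In the same order 29 of 341, 25 of 340, 39 of 335, 57 of 342 and 59 of 342 of all tested miRNAs were called higher. From caput to corpus 1 of 13 was higher, miR-152-3p, where 19% of all tested miRNAs were.

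**Figure D5:**
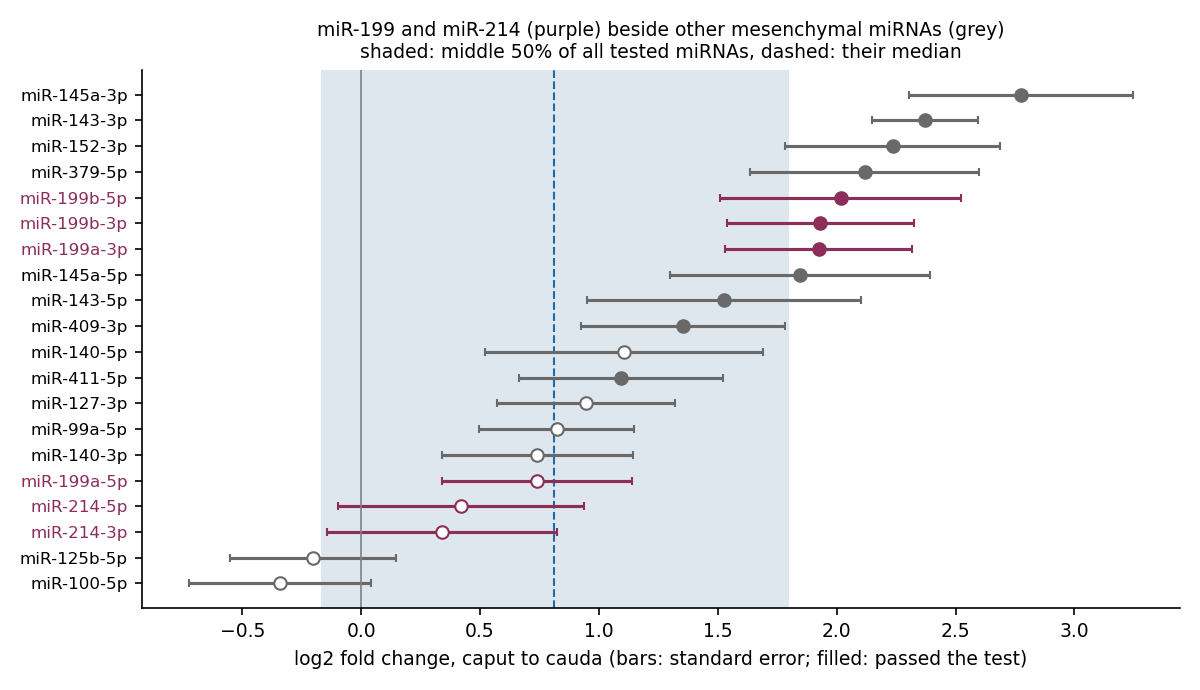
Log2 fold change from caput to cauda (horizontal axis) of the 6 miR-199 and miR-214 names in purple and of the 14 other mesenchymal miRNAs in grey. Bars are standard errors, filled points passed the test, the dashed line is the median of all 349 tested miRNAs and the shaded band holds their middle 50%. Both 3p names and miR-199b-5p lay beyond the band, at 1.92 to 2.02, and miR-199a-5p and miR-214 within it.

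Levels of markers of several cell types are given as sums of CPM, and these sums were not tested. On this scale the median of all tested miRNAs itself rose by 0.81 from caput to cauda. The summed level of the mesenchymal list was 55916 to 98630 CPM in caput vesicles, 96412 to 128753 CPM in corpus vesicles and 301869 to 364169 CPM in the cauda, most of it miR-143-3p. The 5 epithelial names, miR-141-3p and the miR-200 family with miR-429-3p, summed to 20990 to 31796 CPM in caput vesicles, 71973 to 84209 CPM in corpus vesicles and 44552 to 61007 CPM in the cauda. Most of this was miR-141-3p, with means of 17882, 65694 and 40435 CPM in these segments. The means of miR-200a-3p, miR-200c-3p and miR-429-3p were also highest in the corpus, whereas those of miR-200b-3p were 3668, 2177 and 2425 CPM. The 5 leukocyte names summed to 231 to 530 CPM in caput vesicles, 515 to 1149 CPM in corpus vesicles and 392 to 1601 CPM in the cauda. Most of this was miR-142a-5p, with means of 250, 632 and 539 CPM. It was not called from caput to cauda (adjusted p = 0.34 by limma). In that comparison 3 of the 5 names were called higher, where 38.7% of all tested miRNAs were. Of the 3, miR-155-5p passed the filter on low values only through the cauda. For the endothelial miR-126a arms the sums were 837 to 2671, 1721 to 3109 and 2684 to 3457 CPM in caput, corpus and cauda. The 3p and 5p arms changed by 0.97 and 0.92 from caput to cauda and were not called (adjusted p = 0.13 and 0.06 by limma). For 3 red blood cell names the sums were 122 to 468, 234 to 657 and 1595 to 2208 CPM. Most of the red blood cell sum was miR-486a-5p, with means of 231, 303 and 1749 CPM in caput, corpus and cauda vesicles. Those of miR-451a were 39.0, 197 and 196 CPM, and those of miR-144-3p 4.54, 8.29 and 13.1 CPM. From corpus to cauda only miR-486a-5p of these was called, at 2.65 (adjusted p = 0.0014 by limma). miR-451a was at -0.13 and miR-144-3p at 0.66 (adjusted p = 0.9 and 0.52 by limma). For 3 striated muscle names the sums were 52.5 to 184, 113 to 157 and 1249 to 3706 CPM. The part of these cell types in the levels of miR-199 and miR-214 was not tested.

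Among the 352 other miRNAs the course most like the mean of the 6 names, in which the shared 3p reads enter under 2 names, by the Pearson correlation of log2(CPM + 1) over the 9 libraries, was that of miR-511-3p (r = 0.982). miR-511 lies in an intron of Mrc1, the macrophage mannose receptor gene. It was followed by miR-136-5p (0.971), miR-101a-3p (0.957), miR-455-5p (0.953) and miR-142a-3p (0.953), the last a miRNA of blood cells. With TMM normalization miR-511-3p was again the nearest (0.984), while miR-101a-3p fell to 9th and miR-455-5p to 7th. miR-511-3p was rare, with means of 5.17 CPM in caput vesicles, 16.8 CPM in corpus vesicles and 17.9 CPM in the cauda. It thus passed the filter on low values only through the corpus and cauda, where it was higher. The most opposed courses were those of miR-10a-5p (-0.834), miR-146b-5p (-0.813) and miR-9-5p (-0.684). With TMM normalization these were 334th, 340th and 331st of 352 and no longer the most opposed. miR-146b-5p fell from a mean of 4426 CPM in the caput to 293 CPM in the cauda (log2 fold change -3.79, adjusted p = 1.9e-06 by limma).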

How the data were processed

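Small RNA of epididymosomes was sequenced by the authors in 3 libraries for each of 3 segments. The authors screened reads for contaminants, counted them on known mature miRNAs with miRDeep2 and normalised by library size, and the deposited values are CPM. The submitters' processing notes list CASAVA 1.8.2, Bowtie 1.1.1 and limma; the genome build and miRBase release are not given in the sources used here. Groups and replicate numbers were taken from the sample titles.

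Library totals were taken from the smallest steps between CPM values. Depth set the precision: 10 CPM stood for 15.5 reads in the shallowest and 113 in the deepest library. All 358 miRNAs were fitted with limma 3.58 in R 4.3 (trended eBayes, log2(CPM + 1), segment as the only factor), with Benjamini-Hochberg adjustment over miRNAs that averaged 10 CPM or more in a segment compared. Arm ratios used a pseudocount of 0.5 CPM. The fit was tested on simulated data. The p-values measure the spread between pools. TMM and median-of-ratios factors were computed in Python 3.11. Alternatives were other scalings, pseudocounts, filters, limma-voom, the 6 libraries compared alone, a block for the replicate number, merged near-identical names and each library left out in turn. A planned count test was not run, and limma-voom on reads recovered from the CPM steps took its place. The miRNAs named are those chosen by name, the marker lists and the 5 nearest and 3 most opposed courses. The miRNAs and lists were chosen with earlier results of these data known. Hairpin positions are those of RefSeq for GRCm38.p6, and overlapping genes those of GENCODE for GRCm38. Other assays of the study were not analysed here.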

Additional observations from a re-analysis of the deposited data

How the results depend on the processing

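Of 595 values recomputed under 22 settings, 549 kept their direction and their side of the threshold. For many of them the direction could not change. A filter, a block or the loss of a library outside the comparison leaves the fold change as it was. The shared 3p reads also entered under both 3p names, so this count is no measure of stability. From caput to cauda the calls of miR-199a-3p, miR-199b-3p and miR-199b-5p were kept under each setting that gave them a value, at 1.20 to 2.56 on the log2 scale. The calls from caput to corpus of miR-199a-3p and miR-199b-3p were lost with TMM normalization (0.69 and 0.70), median-of-ratios factors (0.74 and 0.75) and library size without the 3 most abundant miRNAs (0.97 and 0.98), because the fold then fell under 2. With 1 library left out these changes were 0.82 to 1.65 and 0.83 to 1.66. In the same comparison miR-199a-5p ranged from 0.70 to 1.35, miR-199b-5p from 0.61 to 1.70 and miR-214-3p from 0.50 to 1.27, each passing without caput replicate 3, as did miR-199a-5p from caput to cauda, at 0.43 to 1.08. Without that library 96 of 306 tested miRNAs were called higher from caput to corpus, and 175 of 335 from caput to cauda.

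Between caput and cauda miR-214-3p and miR-214-5p turned to -0.32 and -0.21 with TMM normalization and to -0.37 and -0.25 with median-of-ratios factors. miR-214-5p was at -0.088 to 0.80 with 1 library left out. The difference between both steps of miR-199b-5p turned to -0.16 with TMM normalization, -0.0087 with median-of-ratios factors and -0.13 without the 3 most abundant miRNAs, and ranged from -0.25 to 0.84 with 1 library left out.

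The arm ratio of miR-199a from caput to cauda no longer passed in the 6 libraries alone (-1.18) or with summed 5p arms (-0.95), and ranged from -1.27 to -1.05 with 1 library left out. From corpus to cauda it passed with a pseudocount of 10 CPM (-0.93) or both arms over 50 CPM (-0.94). With a pseudocount of 10 CPM the uncalled arm ratio of miR-214 turned to -0.026 from caput to corpus and to -0.030 from caput to cauda, and that of miR-199b to -0.13 from caput to cauda. With 1 library left out these ratios crossed 0, at -0.033 to 0.53, -0.44 to 0.11 and -0.14 to 0.42 for miR-214 and at -0.22 to 0.056 and -0.013 to 0.26 for miR-199b. The cause of these changes was not tested.

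The labels number the replicates alike in each segment, but deviations of same-numbered libraries correlated between -0.21 and 0.41, not above 0.1 in every pair, so the numbers were not taken as pairs. With the replicate number as a block no call of the 6 names or of their arm ratios changed: miR-199a-3p stood at 1.92 and miR-199b-5p at 2.02 from caput to cauda (adjusted p = 0.00022 and 0.0013 by limma). Depth limits miR-214-5p most, at 27 to 250 reads a library.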
